A study of Mus musculus with 6 samples.

Results

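The liver X receptors are nuclear receptors that sense oxysterols, the oxidised forms of cholesterol. Nr1h3 (LXR alpha) and Nr1h2 (LXR beta) pair with a retinoid X receptor and switch on genes that move cholesterol out of the cell or limit its uptake. Macrophages depend on this route because they take up cholesterol with the cells and lipoproteins they clear. The genes described here are 8 in number, chosen by name with earlier results of these data known: both receptors, the exporters Abca1 and Abcg1, Mylip, Pltp, Apoe and Lpcat3. They were taken as all probe sets whose single gene symbol in the array annotation is one of these, which gave 11 probe sets for 7 of the 8 genes, out of 45101 probe sets and 18193 genes on the array. Nr1h2 was not analysed here.

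Resident peritoneal macrophages, sorted as CD11b-high and MHCII-low/negative, were compared between 3 Gata6-KO and 3 Gata6-WT samples. The Gata6-KO mice carried a conditional, floxed deletion of Gata6, a transcription factor of these cells, and the Gata6-WT mice were wild type. The mice were sex-matched and 7 weeks old, per the labels, and each sample was a pool of 2 to 3 mice measured on 1 array. The driver of the deletion is not given in the sources used here, so the cell types that carry it are not known from them. At 2 of the 3 Gata6 probe sets the signal was lower in Gata6-KO, by 1.15 and 0.88 on the log2 scale (limma adjusted p = 0.0043 and 0.011), and the remaining one had a log2 difference of -0.01 (adjusted p = 0.98).

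The promoter shown first is that of Abca1, which rose in Gata6-KO and is known as a direct LXR target. LXR and its partner bind a direct repeat, in its ideal form 2 copies of AGGTCA spaced by 4 bases. RefSeq windows of 300 bases (GRCm38.p6, 250 before and 50 after the transcription start) were available for Abca1 (chr4:53159846-53160145, minus strand) and 6 other members, but not for Abcg1. In the window below, read 5′ to 3′ along the gene, capitals mark the stretch closest to that repeat on either strand.
Abca1: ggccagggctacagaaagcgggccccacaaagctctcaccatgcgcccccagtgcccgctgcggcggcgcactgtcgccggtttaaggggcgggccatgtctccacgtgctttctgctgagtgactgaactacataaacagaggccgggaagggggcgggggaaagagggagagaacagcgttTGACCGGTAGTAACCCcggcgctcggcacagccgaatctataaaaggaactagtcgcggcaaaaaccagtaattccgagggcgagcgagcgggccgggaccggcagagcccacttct

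The capitals lie at bases -67 to -52 from the start (chr4:53159947-53159962), on the opposite strand. Read in the direction of the repeat, they match 9 of its 12 fixed bases, as did 21.9% or more closely of all 32817 promoter windows. The closest stretches of Mylip (chr13:45389770-45389785) and Pltp (chr2:164857940-164857955), both higher in Gata6-KO, and of Nr1h3 (chr2:91195151-91195166) and Lpcat3 (chr6:124663005-124663020), which did not pass the test, are set under it, each in the direction of the repeat and with matching bases in capitals.
Abca1: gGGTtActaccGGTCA
Mylip: AGtTCccgggAGcTac
Pltp: AGGaaActgagGcTCc
Nr1h3: AGGTCccggcAcGgCc
Lpcat3: AGGTaggaagAGGgCg

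Abca1 had the closest match, while Mylip and Pltp matched 7 bases and Nr1h3 and Lpcat3 matched 8, as did each of the 3 Apoe windows. Matches of 8 or more were present in 76.9% of all windows. No member window held AGGTCA or GATAA, 1 form of a GATA factor site, on either strand, against 16.3% and 25.4% of all windows. The member windows are few, and some of Nr1h3 and of Apoe overlap, so this is not read as a depletion. Other forms of that site were not searched for over all windows, so their absence is not shown. One of them, GATAG, is present in 1 of the 3 Apoe windows and, on the opposite strand, in the Pltp window. TATAAA on the strand of the gene was found in the windows of Abca1 (from base -29), Mylip (from base -32) and Pltp (from base 37), in 1 of the 3 windows of Apoe (from base -96), which did not pass the test, and in 8.32% of all windows. That motif was chosen after the windows had been read, and a match describes letters rather than a bound site.

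Of the 7 genes measured, 4 were higher in Gata6-KO macrophages. Folds and log2 differences are Gata6-KO over Gata6-WT on the log2(signal + 16) scale, which understates changes of dim probe sets. The cholesterol exporter genes Abca1 and Abcg1, the lipoprotein transfer gene Pltp and the ubiquitin ligase gene Mylip all rose, by 2.18- to 2.88-fold at the brightest probe set of each. The receptor gene Nr1h3, the apolipoprotein gene Apoe and the phospholipid enzyme gene Lpcat3 did not pass the test. Of the 11 probe sets, 8 were called higher and 0 lower, where 5.12% of all 27022 probe sets tested were called higher and 5.67% lower. All 11 passed the filter on low signals. The count of 0 lower comes from limma at an adjusted p under 0.05. At an unadjusted p under 0.05 it was 1, Lpcat3. At that unadjusted threshold 1993 of all 12511 genes tested were lower and 1490 higher, so 1 lower among 7 genes is unremarkable. Counted by gene, 4 of 7 were higher, against 5.61% higher and 7.46% lower among all 12511 genes tested, and the median log2 difference was 1.12 over the members and -0.04 over all genes. The members were chosen with earlier results of these data known, so these contrasts are descriptive. In sorted bulk RNA, fewer cells of a type and less RNA per cell cannot be told apart.

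**Figure D1:**
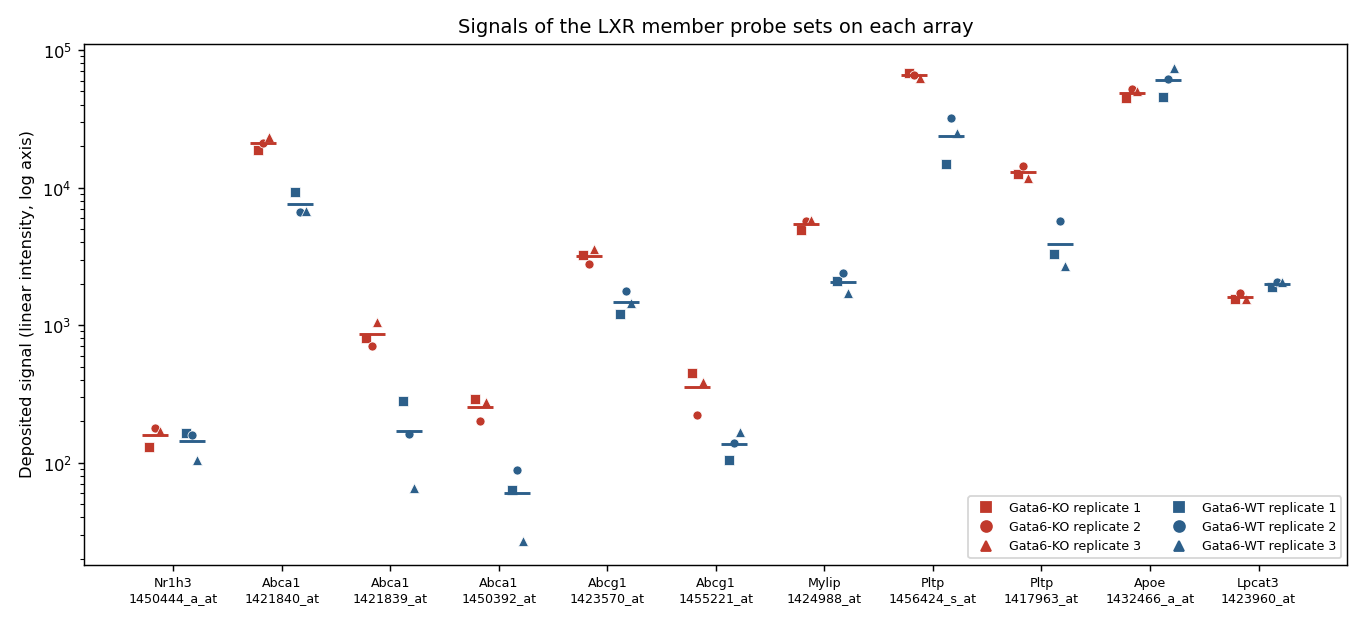
Deposited signal (linear intensity, log axis) of the 11 member probe sets on each array, with Gata6-KO in red left of Gata6-WT in blue; symbols give the replicate number and bars the mean of 3 arrays. The Gata6-KO arrays lay above all Gata6-WT arrays at 8 probe sets and below them at Lpcat3. Heights of different probe sets are not comparable.

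Nr1h3, the receptor itself, was measured by probe set 1450444_a_at. Its signal was 129.9, 180.1 and 169 in Gata6-KO replicates 1, 2 and 3, against 164, 159.9 and 105 in Gata6-WT replicates 1, 2 and 3. The groups overlapped, with the lowest signal in Gata6-WT replicate 3. The mean was 159.7 ± 26.4 in Gata6-KO and 143 ± 32.9 in Gata6-WT (SD, n = 3 each). The fold was 1.11 with a 95% interval from 0.76 to 1.63 (log2 0.15 ± 0.25 SE, limma adjusted p = 0.76). A rise or fall of a size within that interval is thus compatible with these arrays. Without Gata6-WT replicate 3 the log2 difference was -0.031.

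Abca1 hands cholesterol and phospholipid to lipid-poor apolipoprotein A-I and so starts the formation of high-density lipoprotein. At its brightest probe set, 1421840_at, the signal was 18804, 21075 and 23181 in Gata6-KO replicates 1, 2 and 3, against 9244, 6651 and 6753 in Gata6-WT replicates 1, 2 and 3. Every Gata6-KO array was above every Gata6-WT array, by at least 9560.2, and Gata6-WT replicate 1 was the highest of its group. The fold was 2.80 with a 95% interval from 2.23 to 3.52 (log2 1.49 ± 0.15 SE, limma adjusted p = 0.00024). The other Abca1 probe sets had lower signals and pointed the same way. Probe set 1421839_at gave 813, 711 and 1061 in Gata6-KO against 282, 163 and 65.7 in Gata6-WT. Probe set 1450392_at gave 289, 202 and 275 in Gata6-KO against 63.4, 88.8 and 27.0 in Gata6-WT. Neither showed overlap of the groups. Their folds were 5.31 (interval 2.87 to 9.82, limma adjusted p = 0.0046) and 3.78 (2.22 to 6.42, adjusted p = 0.0068), and the wide intervals go with a spread among the Gata6-WT arrays of 0.94 and 0.66 (SD, log2), where the brightest probe set had 0.27.

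Abcg1 exports cholesterol to high-density lipoprotein particles that are already formed. Probe set 1423570_at had 3228, 2798 and 3579.6 in Gata6-KO replicates 1, 2 and 3, against 1210.5, 1770.1 and 1439.8 in Gata6-WT replicates 1, 2 and 3. The lowest Gata6-KO array exceeded the highest Gata6-WT array by 1027. The fold was 2.18 (95% interval 1.70 to 2.78; log2 1.12 ± 0.16 SE, limma adjusted p = 0.0019). The dimmer probe set 1455221_at had 449.7, 221 and 389 in Gata6-KO against 105, 139 and 166 in Gata6-WT. Its gap between groups was narrow because Gata6-KO replicate 2 was low. Its fold was 2.36 (interval 1.52 to 3.65, limma adjusted p = 0.021). That call was lost when 1 array was left out in 4 of the 6 cases. The limma adjusted p was 0.077 and 0.082 when Gata6-KO replicate 1 or 3 was dropped, and 0.061 and 0.060 when number 1 or 2 of the Gata6-WT arrays was.

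Mylip encodes the ubiquitin ligase also called IDOL, which marks the LDL receptor, VLDL receptor and ApoE receptor 2 for destruction and so limits cholesterol uptake. Its probe set 1424988_at had 4885, 5705 and 5857 in Gata6-KO replicates 1, 2 and 3, against 2091, 2382 and 1706 in Gata6-WT replicates 1, 2 and 3. The groups were well apart and each was tight. The means were 5482 ± 523 in Gata6-KO and 2059 ± 339 in Gata6-WT (SD, n = 3 each), a fold of 2.67 (95% interval 2.14 to 3.32; log2 1.41 ± 0.14 SE, limma adjusted p = 0.00027).

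Pltp, the phospholipid transfer protein, moves phospholipid between lipoprotein particles and remodels high-density lipoprotein. Probe set 1456424_s_at had 68580.0, 66004 and 62385 in Gata6-KO replicates 1, 2 and 3, against 14889, 31813 and 25041.5 in Gata6-WT replicates 1, 2 and 3. The groups were far apart, with an SD of 0.069 among the Gata6-KO arrays and 0.56 among the Gata6-WT arrays (log2). Probe set 1417963_at had 12503, 14337 and 11802 in Gata6-KO against 3265, 5673 and 2671 in Gata6-WT. Gata6-WT replicate 2 was the highest of its group at both. The folds were 2.88 (95% interval 2.01 to 4.11, limma adjusted p = 0.0030) and 3.49 (2.42 to 5.02, adjusted p = 0.0013).

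Apoe encodes the lipoprotein component through which macrophages also release cholesterol, and is a known LXR target in these cells. Probe set 1432466_a_at had 44523, 51675 and 50210.4 in Gata6-KO replicates 1, 2 and 3, against 45442, 61333 and 74482 in Gata6-WT replicates 1, 2 and 3. The groups overlapped at Gata6-WT replicate 1. The fold was 0.82 (95% interval 0.63 to 1.07; log2 -0.28 ± 0.17 SE, limma adjusted p = 0.34). Without Gata6-WT replicate 1 the log2 difference was -0.47 and passed the threshold (adjusted p = 0.036), and over all 18 variations of the fit the adjusted p ran from 0.036 to 0.69. Without Gata6-WT replicate 3 the log2 difference was -0.12 (adjusted p = 0.69), and in replicates 2 and 3 alone it was -0.41 and did not pass (adjusted p = 0.0995).

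Lpcat3 puts polyunsaturated fatty acids into membrane phospholipids and is induced by LXR in several tissues. Probe set 1423960_at had 1561, 1713 and 1558 in Gata6-KO replicates 1, 2 and 3, against 1898, 2058 and 2059 in Gata6-WT replicates 1, 2 and 3. The groups did not overlap, with every Gata6-KO array lower, but the difference was small. The fold was 0.80 (95% interval 0.68 to 0.95; log2 -0.31 ± 0.11 SE), with an unadjusted p of 0.017 that did not pass after limma's adjustment (adjusted p = 0.10).

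**Figure D2:**
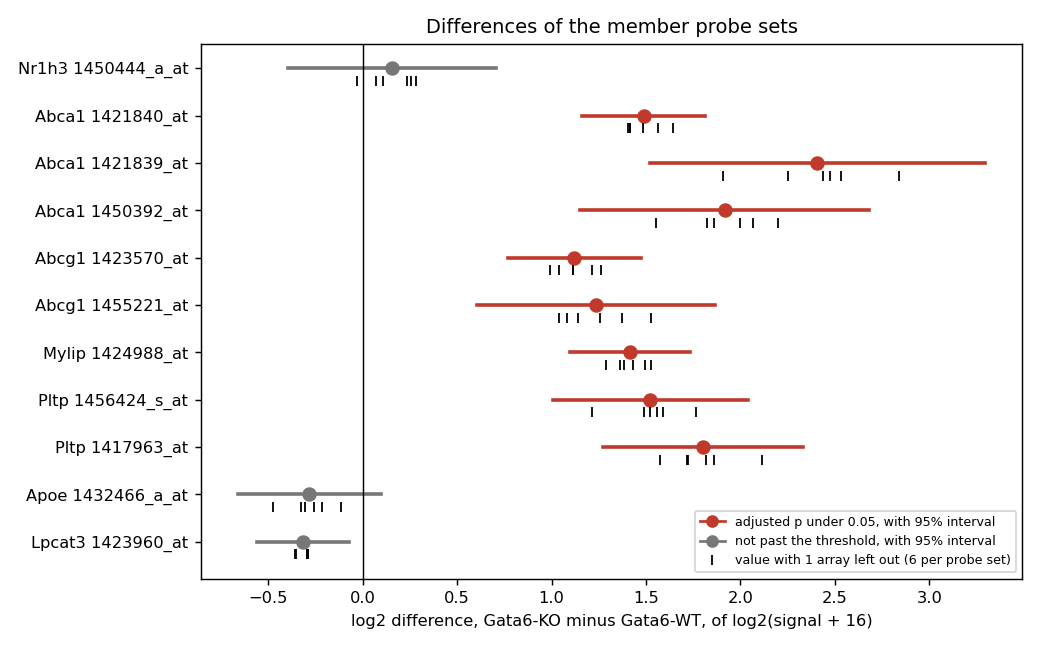
Difference of each member probe set (log2 scale, Gata6-KO minus Gata6-WT, of signal plus 16) with its 95% limma interval; black ticks give the value with each of the 6 arrays left out. The 8 red probe sets of Abca1, Abcg1, Mylip and Pltp stayed above 0 throughout, between 0.99 and 2.84, while the ticks of Nr1h3 reach -0.031.

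Groups did not overlap at 9 of the 11 probe sets, with 8 higher and 1 lower, where 14.8% of all probe sets tested were fully separated upward and 16.3% downward. For such a probe set the exact two-sided permutation test gives p = 0.1, the smallest value that 3 against 3 arrays allow. Among the members that rose, the order of the Gata6-KO arrays differed. Replicate 3 was the highest at the brightest probe set of Abca1, Abcg1 and Mylip, and replicate 1 at that of Pltp. Averaged over the 7 members, the level relative to the Gata6-WT mean was 0.63, 0.76 and 0.79 (log2) in Gata6-KO replicates 1, 2 and 3, against -0.11, 0.15 and -0.04 in Gata6-WT replicates 1, 2 and 3.

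The arrays numbered 1 stood apart by sex-linked genes in both genotypes. The signal of Xist, the RNA that silences 1 X chromosome in female cells, was 102 in replicate 1 of Gata6-KO and 113 in that of Gata6-WT, and between 11158 and 13749 on the other 4 arrays. Differences were therefore also taken within replicates 2 and 3 (female-type, 2 against 2) and within replicate 1 (male-type, 1 against 1, with no test of its own). Abca1 was higher by 1.72 on the log2 scale in the female-type and 1.02 in the male-type arrays, and Pltp by 1.18 in the female-type and 2.20 in the male-type arrays. Abcg1 was higher by 0.98 and 1.40 and Mylip by 1.51 and 1.22, each given as female-type and then male-type. All 4 genes thus pointed upward within each type, and all 4 passed in the female-type arrays alone (highest limma adjusted p 0.022, for Abcg1). The interaction of type and genotype had an unadjusted p of 0.0099 for Abca1 and 0.0029 for Pltp, and a limma adjusted p of 1.00 for each of the 11 probe sets.

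**Figure D3:**
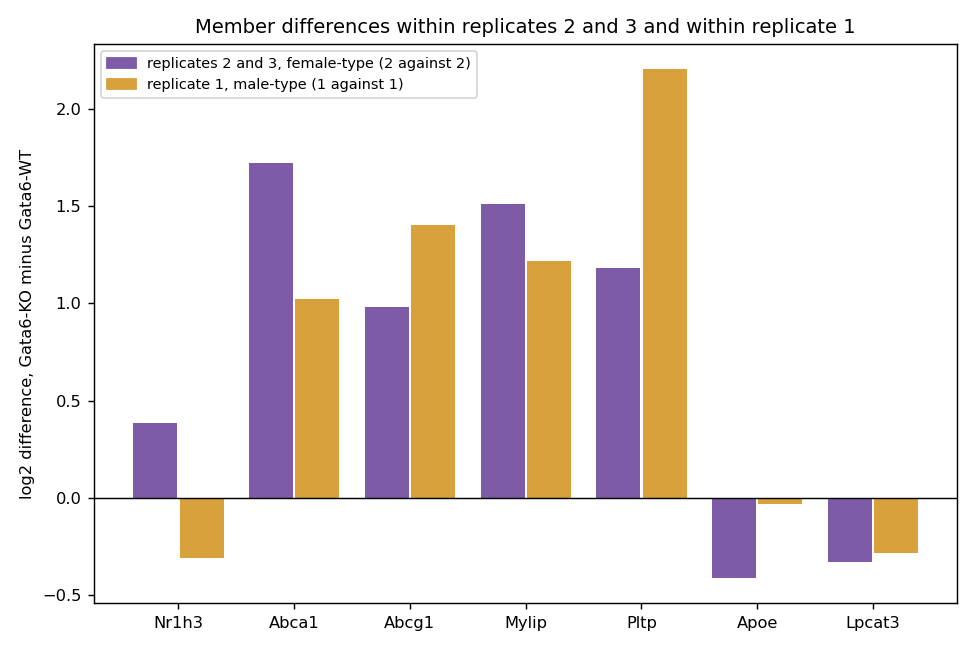
Difference of each member gene (log2, Gata6-KO minus Gata6-WT, brightest probe set) within the female-type arrays, purple, and the male-type arrays, yellow; bars have no error because 1 pair of arrays forms the second type. Abca1, Abcg1, Mylip and Pltp are above 0 in both, and Nr1h3 is at 0.38 in the female-type and -0.31 in the male-type arrays.

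The other genes of the pathway were divided. Of 60 listed genes 48 were tested, of which 7 were higher, 10 lower and 31 did not pass (limma), with a median log2 difference of -0.05. Among all 12511 genes tested, 5.61% were higher and 7.46% lower, and the counts by list below stand against the same shares. Both tested retinoid X receptor genes stayed under the threshold. Rxra, the partner present in most macrophages, had 1275 ± 71.8 in Gata6-KO and 1271 ± 168 in Gata6-WT (SD, n = 3 each; fold 1.01, 95% interval 0.82 to 1.24, limma adjusted p = 0.97). Rxrb had a fold of 0.79 (interval 0.63 to 0.99, unadjusted p under 0.05 but limma adjusted p = 0.18).

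Of 7 tested coregulators, 2 fell and 0 rose. Nrip1, a corepressor also called RIP140, had 1499.6 ± 235 in Gata6-KO and 3359 ± 612 in Gata6-WT (log2 -1.15 ± 0.16 SE, limma adjusted p = 0.0020). These values are from its brightest probe set, and 2 of its 5 tested probe sets were called lower. Ncoa1, a coactivator also called SRC-1, fell by 0.60 on the log2 scale (adjusted p = 0.039).

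Other LXR targets divided. Of 19 tested, 3 rose, 5 fell and 11 did not pass, with a median log2 difference of 0.21. Rnf145, a ubiquitin ligase of sterol regulation, rose to 6834 ± 834 in Gata6-KO, against 4037 ± 439 in Gata6-WT (log2 0.76 ± 0.13 SE, limma adjusted p = 0.0053). Mertk, a receptor for the uptake of dying cells, and Smpdl3a, a phosphodiesterase, rose by 0.43 and 0.35 on the log2 scale (adjusted p = 0.031 and 0.045). Among lipogenic targets, Fasn, fatty acid synthase, fell to 219 ± 43.6 in Gata6-KO, against 453 ± 64.1 in Gata6-WT (fold 0.499, 95% interval of the log2 difference -1.44 to -0.57, limma adjusted p = 0.010). Srebf1, the regulator that LXR induces to drive fatty acid synthesis, had 1895 ± 110.3 in Gata6-KO and 1828 ± 268 in Gata6-WT (log2 0.06, adjusted p = 0.83). Scd1, the desaturase gene, had a log2 difference of 0.36 (adjusted p = 0.61). Lpl, lipoprotein lipase, fell by 1.06 (adjusted p = 0.00015) and Cd5l, a survival factor of macrophages, fell by 0.64 (adjusted p = 0.037).

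Apoe lies in a cluster with Apoc1, Apoc4 and Apoc2, neighbours in the RefSeq gene table, and LXR is known to induce genes of this cluster in macrophages. Apoc1 had 1285, 1910.2 and 1914 in Gata6-KO replicates 1, 2 and 3, against 5600.1, 10745 and 16565 in Gata6-WT replicates 1, 2 and 3. Apoc2 had 322, 197 and 791 in Gata6-KO against 794, 3755 and 5874 in Gata6-WT. In both genes Gata6-WT replicate 1 was the lowest of its group, as at Apoe, and for Apoc2 it nearly touched the highest Gata6-KO array. The log2 differences were -2.57 ± 0.33 for Apoc1 and -2.76 ± 0.68 for Apoc2 (SE; limma adjusted p = 0.0012 and 0.031). Without Gata6-WT replicate 1 the log2 difference of Apoc2 was -3.61, and without Gata6-WT replicate 3 it was -2.18. Apoc4 had a log2 difference of 0.43 (adjusted p = 0.35). Genes of the Apoe cluster and the exporter genes were thus measured in different directions, with 2 of the 4 cluster genes lower and none higher (limma).

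Genes that make or remove LXR ligands were mostly under the threshold, with 1 of 5 tested lower and 0 higher. Cyp7b1, a hydroxylase that removes oxysterols, fell to 116 ± 36.2 in Gata6-KO, against 371 ± 28.4 in Gata6-WT (log2 -1.59 ± 0.24 SE, limma adjusted p = 0.0030). Cyp27a1, which makes 27-hydroxycholesterol, had 1613 ± 496 in Gata6-KO and 1644 ± 121 in Gata6-WT (adjusted p = 0.87), and Ch25h, which makes 25-hydroxycholesterol, had 88.8 ± 46.4 in Gata6-KO and 54.1 ± 23.9 in Gata6-WT (adjusted p = 0.53).

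Among 10 tested genes of cholesterol release, esterification and transport, 2 rose and 2 fell. Npc1 and Lipa, genes of cholesterol handling in the lysosome, rose by 0.64 and 0.50 on the log2 scale (limma adjusted p = 0.019 and 0.020). Scarb1, the high-density lipoprotein receptor, fell by 0.49 and Stard4, a sterol carrier, fell by 0.64 (adjusted p = 0.042 and 0.020). Of 3 tested probe sets each, 2 were called for Lipa, 2 for Scarb1 and 1 for Stard4. Of the receptors that MYLIP removes, Vldlr was the single one tested, with 103, 232 and 105 in Gata6-KO against 2.59, 46.5 and 39.0 in Gata6-WT (log2 1.93 ± 0.52 SE, limma adjusted p = 0.043). All its Gata6-WT signals were under the filter level of 47.5, so Vldlr entered the test through the Gata6-KO arrays and its fold depends on the added constant. The call, 1 of the 7 higher, was lost with a constant of 1 (log2 2.85, limma adjusted p = 0.093) and with no filter (adjusted p = 0.083). It was made at 1 of the 2 Vldlr probe sets tested. In sterol sensing, Insig1 rose by 0.72 on the log2 scale (adjusted p = 0.031), and Srebf2, Scap and Insig2 did not pass.

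**Figure D4:**
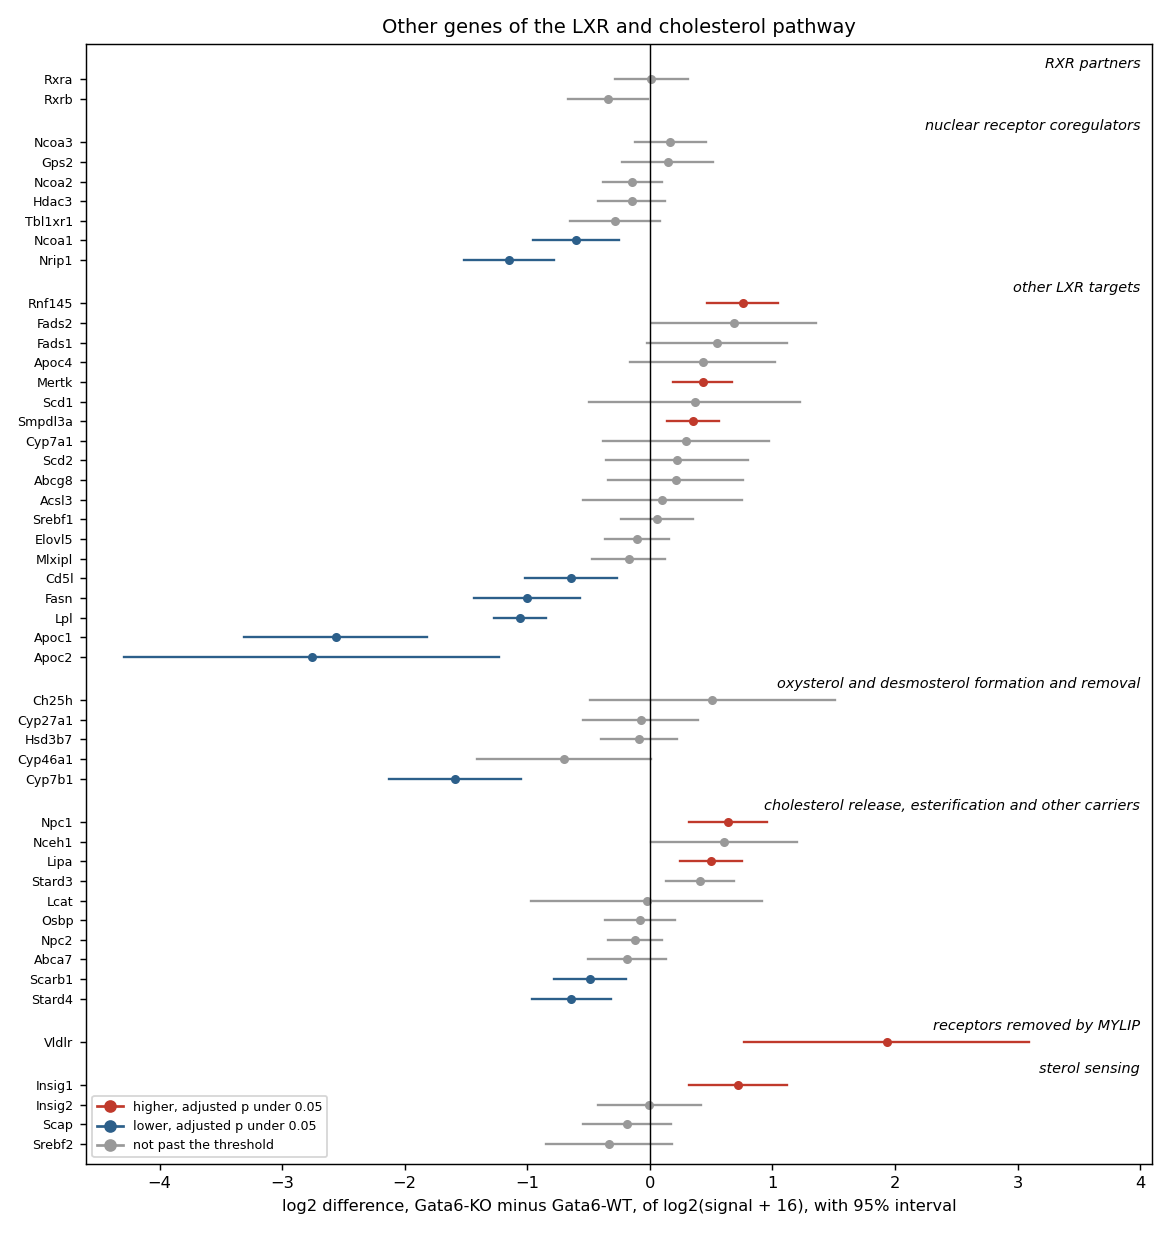
Differences of the 48 other tested pathway genes (log2, Gata6-KO minus Gata6-WT, brightest tested probe set) with 95% limma intervals, grouped by list; red genes were called higher, blue lower and grey did not pass. The 7 red and 10 blue genes are spread over the lists, with Apoc1 and Apoc2 farthest below 0.

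Of these 17 calls, each at the brightest tested probe set, 6 held with any single array left out, those of Nrip1, Fasn, Apoc1, Lpl, Rnf145 and Cyp7b1. The other 11 were lost in 3 to 5 of the 6 omissions. Their highest adjusted p was 0.12 for Ncoa1 and 0.10 for Apoc2 without Gata6-KO replicate 2, 0.16 for Smpdl3a and 0.078 for Lipa without Gata6-KO replicate 1, and 0.13 for Cd5l, 0.12 for Mertk and 0.070 for Npc1 without Gata6-WT replicate 2. For Scarb1, Stard4, Vldlr and Insig1 it was 0.13, 0.072, 0.16 and 0.11 without Gata6-KO replicate 2 (limma). The number of these calls lost was 9, 9 and 7 without Gata6-KO replicate 1, 2 or 3, and 5, 10 and 8 without Gata6-WT replicate 1, 2 or 3.

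By pattern over the 6 arrays, the genes outside the pathway lists most like Abca1 were 4931406C07Rik, Tfec and Grap, with a root mean square difference of 0.12, 0.13 and 0.15 (log2, each gene set to its Gata6-WT mean, among 12456 genes). Those most like Mylip were Ehd4 (0.091), Bambi-ps1 (0.12) and Nabp1 (0.14), and those most like Pltp were Slc34a3 (0.14), Tns1 (0.23) and Pfkfb3 (0.23). This likeness is dominated by the difference between genotypes, which all points share, and is given as a description.

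Markers of macrophages were present on every array. The summed signal of 9 resident macrophage markers was 199711 to 216233 in Gata6-KO and 228870 to 279623 in Gata6-WT, and of these 5 were lower and 1 higher in Gata6-KO. The lower ones were Adgre1, Timd4, Icam2, Cd68 and Gata6, the deleted gene. Adgre1 had 12149 ± 3204 in Gata6-KO and 43123 ± 3980 in Gata6-WT (limma adjusted p = 0.00027). The higher one was Mertk, which is also listed among the other LXR targets. Csf1r, the receptor for macrophage colony-stimulating factor, and Lyz2, lysozyme, did not pass the test and were high on all arrays, with 57372 ± 5147 and 71833 ± 6910 in Gata6-KO, against 55393 ± 7553 and 72536 ± 11571 in Gata6-WT. The sum of 5 markers of monocytes and small peritoneal macrophages was higher in Gata6-KO, a difference between genotypes that the 4 members share. It was 32201 to 33228 in Gata6-KO and 1215 to 1826 in Gata6-WT, and 3 of its 4 tested genes were higher: Folr2, Ccr2 and Plac8. In Gata6-KO the sum was mostly Folr2 (26663 ± 4804, against 423 ± 228 in Gata6-WT) and Ccr2 (4591 ± 4378, against 132 ± 46.6). These 2 genes differed in order within Gata6-KO. Over replicates 1, 2 and 3, Folr2 was 21116, 29417 and 29457, and Ccr2 was 9632, 2401 and 1740. Irf4 did not pass the test (limma adjusted p = 0.66). Cd226, too dim to be tested, had a lower mean in Gata6-KO (11.7) than in Gata6-WT (24.7). The part of these cells in the differences of the LXR genes was not tested. Sums for B cells (215 to 261 in Gata6-KO, 202 to 294 in Gata6-WT), T cells (144 to 240.4 in Gata6-KO, 211 to 321 in Gata6-WT) and dendritic cells (237 to 444 in Gata6-KO, 227 to 282 in Gata6-WT) overlapped between genotypes. So did those for eosinophils (111 to 189 in Gata6-KO, 76.3 to 186 in Gata6-WT) and mesothelial cells or fibroblasts (142 to 184 in Gata6-KO, 136 to 196 in Gata6-WT). Mast cell and neutrophil marker sums were lower in Gata6-KO (270.2 to 450.4 and 347 to 689.9) than in Gata6-WT (464 to 584 and 887 to 1510.4), and their part was not tested. The neutrophil sum was nearly all S100a8 (488 ± 186 in Gata6-KO, 1111 ± 332 in Gata6-WT), while S100a9 (17.9 in Gata6-KO, 4.11 in Gata6-WT), Camp (27.0 in Gata6-KO, 20.5 in Gata6-WT) and Ltf (10.6 in Gata6-KO, 6.20 in Gata6-WT) were too dim to be tested. The mast cell sum was mostly Cpa3 and Cma1, which did not pass the test, and the dim Tpsb2 had a higher mean in Gata6-KO (71.7) than in Gata6-WT (19.2). The sum of 2 erythroid markers was 32.2 to 67.9 in Gata6-KO and 57.6 to 66.3 in Gata6-WT. The ratio of 3′ to 5′ control signals, a sign of RNA integrity, was lower on every Gata6-KO array for both control genes. It was 1.377 to 1.431 for Actb in Gata6-KO and 1.432 to 1.498 in Gata6-WT, and 0.697 to 0.722 for Gapdh in Gata6-KO and 0.742 to 0.778 in Gata6-WT. The part of RNA integrity in the differences of the LXR genes was not tested.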

How the data were processed

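The deposited values are linear intensities, 1 signal per probe set and array, and the tools in the submitters' processing notes are MAS5 and affy, with no version given. Without the highest and lowest 2% the mean was 500 on all 6 arrays, so the authors had scaled the intensity values. Probe sets were named from the array annotation (34958 with 1 symbol, 932 with several, 9211 with none), and 34754 matched the GRCm38.p6 gene table, with 0 symbols updated. The files name no genome build, so positions are given for RefSeq sequences only.

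Signals were taken as log2(signal + 16), which understates the change of low signals. After removal of 64 controls, a probe set entered the test if their mean log2 value was above the 40th percentile (signal 47.5), leaving 27022. Gata6-KO was compared with Gata6-WT with limma 3.58.1 (R 4.3.3), using lmFit and an eBayes step that lets the prior variance follow the mean signal. Tests were two-sided, and p-values were adjusted over all tested probe sets by Benjamini-Hochberg, with a threshold of 0.05. Counts by gene use the brightest tested probe set of each gene. The labels call the 3 samples of each genotype biological replicates, and the number of arrays limits precision. The fit was also run on simulated arrays with known changes, and the outcome is not reported here.

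The members and lists were chosen with earlier results of these data known. Named were all member probe sets, Gata6, up to 5 called genes per list (or up to 2 with the smallest p), markers as sums with examples, and the 3 genes most like each of up to 3 members. Further pathway genes (Srebf1, Scd1, Apoc4, Cd5l, Mertk, Smpdl3a, Cyp27a1, Ch25h, Srebf2, Scap and Insig2) were named after their values were seen. No probe set was listed under a single symbol for 15 of the listed genes, which were not analysed here. Plots and promoter searches used Python 3.11.15 and matplotlib 3.10.9.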

Additional observations from a re-analysis of the deposited data

Results flagged for a closer look

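Nr1h3 differed between the types of array. Both female-type Gata6-KO arrays lay above both female-type Gata6-WT arrays (log2 difference 0.38), while the male-type Gata6-KO array lay below its Gata6-WT counterpart (log2 difference -0.31). The limma interaction of type and genotype had an unadjusted p of 0.23 and an adjusted p of 1.00, with 1 male-type array per genotype. Groups of 3 arrays were not examined for single deviating arrays.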

How the results depend on the processing

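The calls of Abca1, Abcg1, Mylip and Pltp at their brightest probe sets held under all 18 variations run for each, with a highest adjusted p of 0.032. The variations changed the pseudocount (1 or 64), the filter (absent, or at the 60th percentile), the scaling between arrays (quantile or median) and the model (no trend, weighted arrays, replicate block, Xist as covariate), or used replicates 2 and 3 alone, 5 of the 6 arrays, or the mean of all probe sets of a gene. With 1 array left out, Nr1h3 ran from -0.031 to 0.28 on the log2 scale, turning its sign without Gata6-WT replicate 3. Apoe ran from -0.47 to -0.12 and passed without Gata6-WT replicate 1. The count over all probe sets, 2916, was 1459 without the trend, 1654 in replicates 2 and 3, 1251 at an adjusted p under 0.01 and 1856 to 2476 with 1 array left out. The 17 calls among other pathway genes became 11 without the filter, 6 without the trend, 8 in replicates 2 and 3, 5 at an adjusted p under 0.01 and 7 to 12 with 1 array left out. With the mean of all tested probe sets of a gene they became 14, with 7 higher and 7 lower. A stricter threshold lowers a count by construction, and for the other variations, with fewer arrays among them, the cause was not tested. Samples of the same number shared deviations weakly (r = 0.13, 0.074 and 0.074 for numbers 1, 2 and 3). Without X and Y genes r was 0.091, 0.066 and 0.066. Every array correlated best with its own number, and r was negative between all different numbers. The numbers thus carry a shared factor, which the main fit left out and the replicate block took in. With that block 3076 probe sets were called and 4 member genes, as without it. Among other pathway genes 16 were called, with the calls of Smpdl3a (limma adjusted p = 0.085) and Scarb1 (0.052) lost. Low signals limit what can be said of Nr1h3, Vldlr and the dim Abca1 and Abcg1 probe sets.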
